A study of Mus musculus with 12 samples.

Results

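The YAP and TEAD pathway loci are 10 genes of the transcriptional arm of Hippo signalling: the DNA-binding factors Tead1, Tead2, Tead3 and Tead4, the coactivators Yap1 and Wwtr1 (which encodes TAZ), and the target genes Ccn1, Ccn2, Ankrd1 and Amotl2. A peak belonged to a locus when its summit lay in the gene body or in the 50000 bp upstream of it (mm10, GENCODE M21), and a promoter call was a peak within 3000 bp of any transcript start of the gene. By this rule 461 of the 658361 peaks listed over the 12 libraries belonged to the 10 loci, of 21938 protein-coding loci in all.

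Chromatin accessibility was measured by ATAC-seq, in which a transposase cuts open chromatin, in primary fibroblasts grown from the lower abdominal muscles (LAM) of Arom hum mice. These mice carry the human aromatase gene and convert more testosterone to estradiol (E2) in muscle, and every group shared this genotype. Serum-free cultures received vehicle (ethanol and DMSO), 10 nM E2, 10 nM E2 plus 100 nM fulvestrant, or 100 nM fulvestrant, with 3 libraries per treatment. Fulvestrant or DMSO was given 3 h before E2 or its solvent, which was present for 1 h. Fulvestrant is an antagonist that degrades estrogen receptor-α. The fibroblasts were isolated by pre-plating, a step meant to remove myogenic and other cells, and the study checked their purity by marker staining. In a bulk library, fewer cells with an open site cannot be told apart from a less open site in each cell. The promoters of 5 of 9 fibroblast markers were called in 6 or more libraries, against 2 of 7 skeletal muscle lineage markers and 1 of 2 adipocyte, 0 of 4 endothelial, 0 of 5 immune and 0 of 4 epithelial markers, and Myod1, Pax7 and Myh1 were called in none. Of all protein-coding promoters, 44.5% were called in 6 or more libraries. At a q-value of 0.05 or less this share was 14.3%. At that limit 0 of the 9 fibroblast markers were called that often, and 0 markers of each other list.

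In Hippo signalling, a kinase cascade phosphorylates YAP and TAZ and holds them in the cytoplasm. When the cascade is off, both enter the nucleus, bind TEAD proteins and switch on genes for matrix-associated and cytoskeletal proteins. In fibroblasts this arm responds to stiff matrix and is known for its part in fibrosis. CCN1 and CCN2 are secreted matrix-associated proteins, ANKRD1 is a nuclear and sarcomeric ankyrin repeat protein, and AMOTL2 is an angiomotin family protein that binds YAP and restrains it.

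The sequences below are the 250 bases before the start of Ccn1, Ankrd1, Amotl2 and both coactivator genes, printed 5′ to 3′ on the strand of the gene because these promoters carry or lack the TEAD recognition motif. They were read from the GRCm38 genome, which is mm10. The start is that of the gene record, except for Amotl2, where the start nearest to its strongest promoter summit was taken. Capitals mark the TEAD motif GGAATG or its complement CATTCC, searched on both strands.
Ccn1 (chr3:145649982-145650231, minus strand): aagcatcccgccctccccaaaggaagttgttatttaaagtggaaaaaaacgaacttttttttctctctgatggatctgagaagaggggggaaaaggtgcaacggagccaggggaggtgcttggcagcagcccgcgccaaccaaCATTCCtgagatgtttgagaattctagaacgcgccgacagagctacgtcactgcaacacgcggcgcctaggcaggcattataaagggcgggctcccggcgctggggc
Ankrd1 (chr19:36120100-36120349, minus strand): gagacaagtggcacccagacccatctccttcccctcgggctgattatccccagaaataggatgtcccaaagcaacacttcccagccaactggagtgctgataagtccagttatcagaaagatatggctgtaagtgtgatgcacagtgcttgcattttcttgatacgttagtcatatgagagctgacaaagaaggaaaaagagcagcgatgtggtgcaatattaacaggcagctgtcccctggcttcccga
Amotl2 (chr9:102717418-102717667, plus strand): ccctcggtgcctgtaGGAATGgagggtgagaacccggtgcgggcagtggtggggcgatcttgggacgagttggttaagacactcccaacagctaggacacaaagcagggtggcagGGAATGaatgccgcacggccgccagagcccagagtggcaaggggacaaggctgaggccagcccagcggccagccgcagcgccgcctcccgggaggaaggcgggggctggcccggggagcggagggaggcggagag
Yap1 (chr9:8004597-8004846, minus strand): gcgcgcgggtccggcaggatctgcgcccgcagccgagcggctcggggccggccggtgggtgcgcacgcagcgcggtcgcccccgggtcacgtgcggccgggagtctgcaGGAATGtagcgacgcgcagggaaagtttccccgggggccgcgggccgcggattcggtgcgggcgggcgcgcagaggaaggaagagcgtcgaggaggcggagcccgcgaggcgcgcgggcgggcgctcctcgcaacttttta
Wwtr1 (chr3:57575911-57576160, minus strand): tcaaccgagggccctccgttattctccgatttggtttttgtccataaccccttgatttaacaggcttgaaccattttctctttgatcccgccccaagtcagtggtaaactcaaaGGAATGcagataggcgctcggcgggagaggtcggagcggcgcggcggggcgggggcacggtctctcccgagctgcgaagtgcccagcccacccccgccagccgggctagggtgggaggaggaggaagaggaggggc

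Amotl2 held 2 copies of the motif in this window. Ccn1, Yap1 and Wwtr1 held 1 each, and Ankrd1 held none. Before the start of the gene record, the motif lay in the 250-base window of 6 of the 9 members examined (Tead2, Tead4 and Ankrd1 lacked it), against 11.5% of 21938 protein-coding genes. A match is a string of letters and was not measured as TEAD binding.

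The libraries differed widely within and between treatments, and every value that follows was taken from them. The lists held 30062 to 110724 peaks each, and 7.35% to 46.4% of a list had a q-value of 0.05 or less. The 4 libraries numbered 1 held 22 to 36 peaks on chromosome Y, against 854 to 1148 in the other 8, and their lists covered the promoters of 56.9% to 62.2% of protein-coding genes. The other E2, E2 plus fulvestrant and fulvestrant libraries covered 16.8% to 29.1%, and vehicle libraries 2 and 3 covered 43.5% and 53.3%. On chromosome Y the libraries numbered 1 thus stood apart in every treatment. The comparisons of peak numbers between treatments do not use the replicate numbers, so this shared shift stays in the spread within each group. Overlap between treatments is therefore no measure of equal accessibility. The part of these differences in the results was not tested. Read depth is not given in the lists, but the tags at each summit could be solved from fold enrichment and p-value, and the genome-wide background was 0.713 to 1.42 tags per window.

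Counting any start, the promoters of the target genes Ccn2 and Amotl2 and of Tead1 were those most often called among the members. The Ccn2 promoter was called in 9 of 12 libraries. Its fold enrichment over local background was 4.09, 2.78 and 9.89 in the vehicle libraries and 3.55 and 3.27 in E2 libraries 1 and 2. It was 4.78 and 3.30 in E2 plus fulvestrant libraries 1 and 3 and 4.04 and 4.61 in fulvestrant libraries 1 and 2. Vehicle library 3 stood above all others with 35 tags at the summit, while the other 8 calls rested on 4 to 10 tags, and the treatments overlapped. The summit of the merged region lay in an exon of Ccn2 and of the overlapping Gm15270.

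The Amotl2 promoter was also called in 9 of 12 libraries. Its fold enrichment was 6.30, 2.27 and 7.80 with vehicle and 6.87 and 3.37 in E2 libraries 1 and 3. It was 8.02 and 2.85 in E2 plus fulvestrant libraries 1 and 3, and 7.0 and 4.81 in fulvestrant libraries 1 and 2. The high values, from 6.30 to 8.02, were vehicle library 3 and the 4 libraries numbered 1, so each treatment had at least 1 high library. As many as 3 start regions of Amotl2 were called in 5 or more libraries: chr9:102717181-102718527 in 7, chr9:102723701-102724454 in 6 and chr9:102726047-102726675 in 5. The calls of E2 library 3 and E2 plus fulvestrant library 3 lay outside these regions, 3695 and 4887 bp into the gene.

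**Figure D1:**
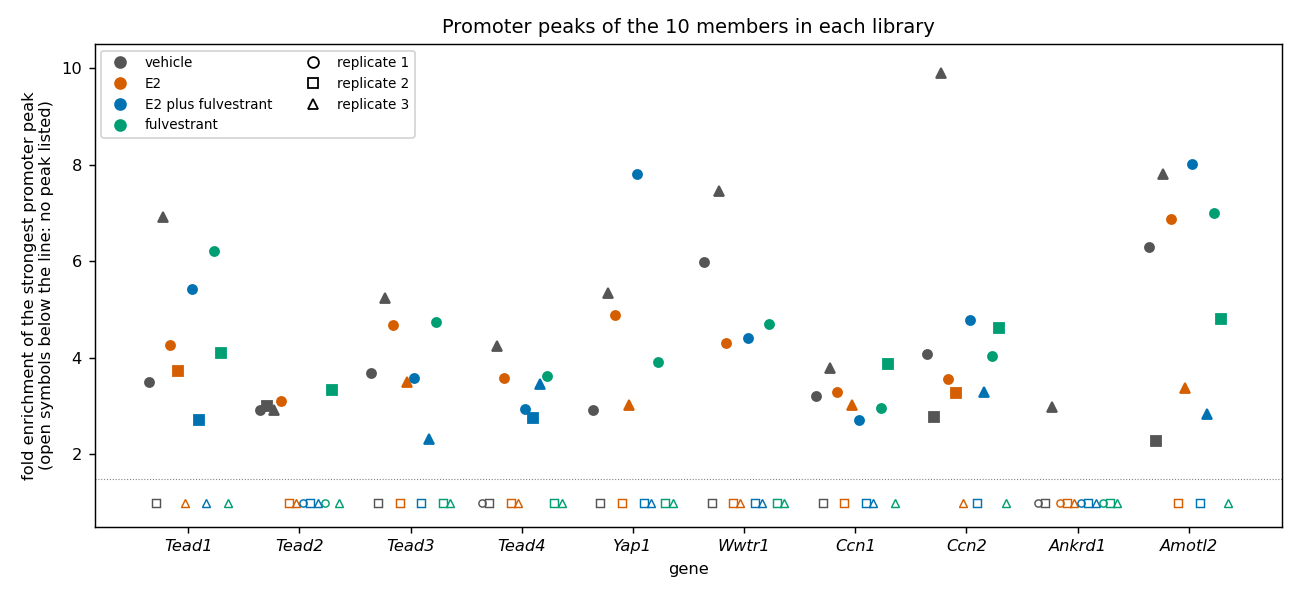
Fold enrichment of the strongest promoter peak (vertical axis, fold over local background) of each of the 10 members in each of the 12 libraries, coloured by treatment and shaped by replicate number; open symbols mark libraries with no listed peak. Ccn2 in vehicle library 3 (9.89) is the highest point, Amotl2 has 5 libraries from 6.30 to 8.02, and Ankrd1 has 1 call.

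The other 2 target genes were called less widely. The Ccn1 promoter was called in 7 libraries at a fold enrichment of 2.71 to 3.88, a narrow range that spanned all 4 treatments. The Ankrd1 promoter was called in 1 library, vehicle 3, at 2.97 with 5 tags (95% Poisson interval 1.62 to 11.7, counting error only). The absence of a peak says that none passed the p-value threshold of the lists, not that the promoter was closed.

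Among the DNA-binding factors, the Tead1 promoter was called in 8 libraries, 2 of each treatment, when any of its starts was counted. Its fold enrichment was 3.50 and 6.91 with vehicle (libraries 1 and 3), 4.26 and 3.73 with E2 (1 and 2), 5.43 and 2.70 with E2 plus fulvestrant (1 and 2) and 6.20 and 4.10 with fulvestrant (1 and 2). The values of every pair of treatments overlapped, but they were not all at 1 start. Those of E2 library 2 and E2 plus fulvestrant library 2 lay 14629 and 82700 bp into the gene. That of vehicle library 1 was found 13995 and again 160257 bp into it. The region at the gene start, chr7:112678463-112680203, was called in 6 libraries. These were 2 with vehicle, 1 with E2, 1 with E2 plus fulvestrant and 2 with fulvestrant, and vehicle library 1 had 2.34 there. The Tead3 promoter was called in 7 libraries at 2.31 to 5.25 and the Tead4 promoter in 6 at 2.75 to 4.25. Tead2 was called in 5 at 2.91 to 3.33, and no Tead2 promoter peak reached a q-value of 0.05.

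Of the coactivators, the Yap1 promoter was called in 6 libraries. The fold enrichment was 2.92 and 5.34 with vehicle (1 and 3), 4.88 and 3.03 with E2 (1 and 3), 7.80 with E2 plus fulvestrant (1) and 3.91 with fulvestrant (1). The highest value, in E2 plus fulvestrant library 1, rested on 16 tags (95% Poisson interval 9.15 to 26.0). The values 2.92 and 3.03 lay away from the gene start, 3084 and 36081 bp into the gene. The Wwtr1 promoter was called in 5 libraries at 4.32 to 7.46, namely the 4 libraries numbered 1 and vehicle library 3, and all 5 calls had a q-value of 0.05 or less.

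In all, 7 of the 10 member promoters were called in 6 or more libraries, against 44.5% of protein-coding promoters. At a q-value of 0.05 or less these were 2 of 10 (Ccn2 and Amotl2) and 14.3%. The upstream Hippo genes are a list of kinases, scaffolds and regulators. Without the q-value limit 19 of their 24 promoters were called in 6 or more libraries, with Vgll1 called in none. With the limit these were 11 of 24 (45.8%). Of 18 other published YAP and TEAD targets, 12 were called that often without the limit and 1 (5.56%) with it. The number of member promoters called was 8, 3 and 10 with vehicle, 9, 2 and 4 with E2, 8, 2 and 4 with E2 plus fulvestrant and 8, 5 and 0 with fulvestrant. The 5 libraries with 8 or more were the 5 whose lists covered the largest share of all promoters.

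**Figure D2:**
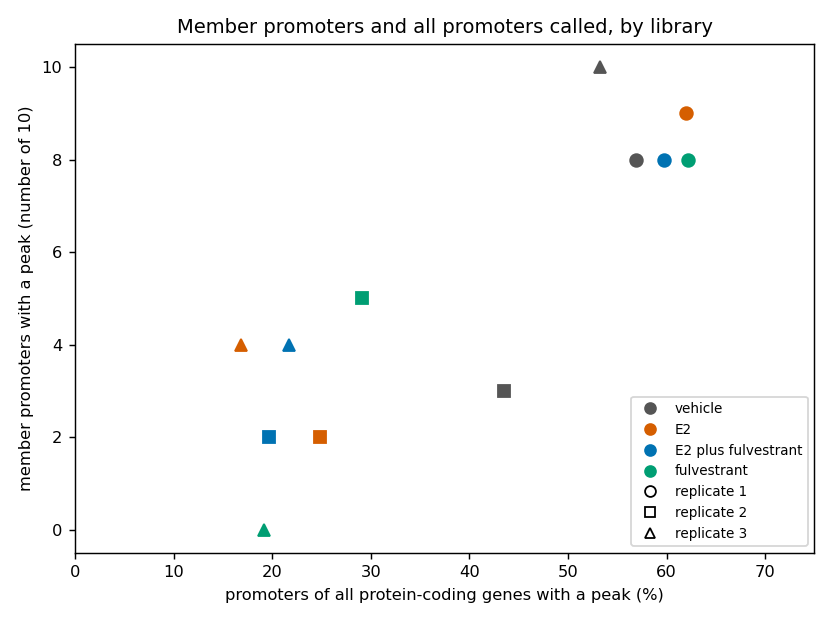
Number of the 10 member promoters with a peak (vertical axis) against the percentage of all protein-coding promoters with a peak (horizontal axis), 1 point per library, coloured by treatment and shaped by replicate number. The 4 libraries numbered 1 and vehicle library 3 hold 8 to 10 member promoters, and fulvestrant library 3 holds 0.

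Most member regions were listed in a single library, at a share close to that of all regions. Overlapping peaks merged into 287 regions, of which 221 (77.0%) were listed in 1 library, against 77.7% of all 435284 merged regions. There were 31 regions (10.8%) in 3 or more libraries, against 10.4% of all, and 9 (3.14%) in 6 or more, against 2.57%. Of the 287 regions, 38 lay at a promoter of the member itself, 43 at a promoter of another gene and 206 farther from any start. Tead1, the longest locus, held 80 regions, and Ankrd1 held 12, of which 11 were in 1 library.

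**Figure D3:**
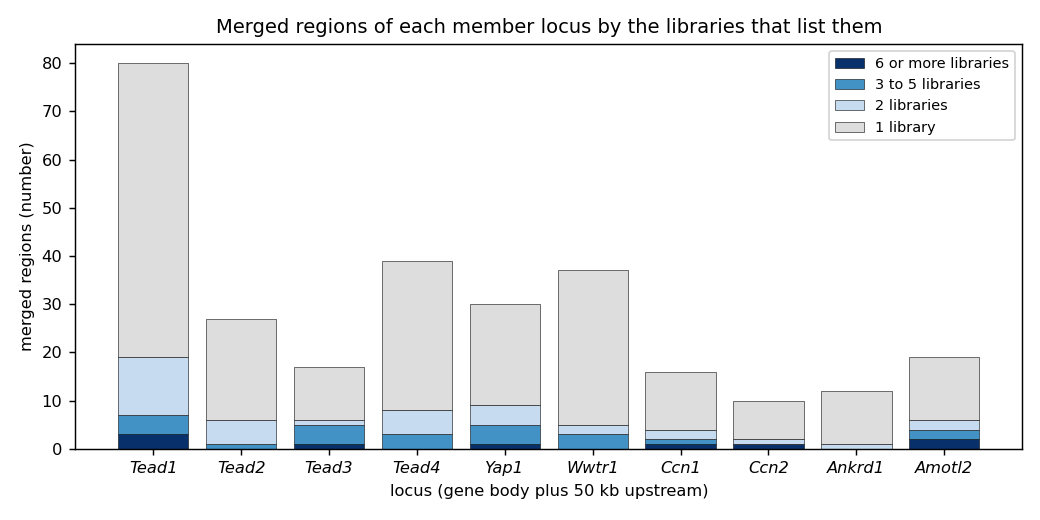
Number of merged regions in each member locus (stacked bars), divided by how many of the 12 libraries listed them. Regions in 1 library form the largest share of every bar, from 11 of 17 at Tead3 to 11 of 12 at Ankrd1.

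One member region was called in all 12 libraries, chr7:112637240-112639211. Its summit was at -41285 bp from the start of Tead1, in an intron of 2310014F06Rik. Its fold enrichment was 2.92, 4.14 and 2.94 with vehicle and 4.40, 4.36 and 4.05 with E2. It was 4.27, 3.46 and 4.0 with E2 plus fulvestrant and 4.26, 3.20 and 3.60 with fulvestrant. E2 libraries ranged from 4.05 to 4.40 and overlapped vehicle library 2, and each call rested on 4 to 12 tags. The 32-base words around its summit occurred 8 to 15 times in the genome, so reads from other copies may be counted there, whereas the words at every other member region called in 5 or more libraries occurred once.

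At this Tead1 region the log2 difference of E2 against E2 plus fulvestrant was 0.04 (SE 0.14, limma adjusted p = 0.994). E2 against vehicle gave 0.33 (SE 0.14, limma unadjusted p = 0.0329, adjusted p = 0.555), fulvestrant against vehicle 0.11 (SE 0.14, limma adjusted p = 0.943) and E2 plus fulvestrant against vehicle 0.29 (SE 0.14, limma adjusted p = 0.448). The interaction of E2 with fulvestrant was 0.15 (SE 0.20, limma adjusted p = 0.979). Over the 721 regions called in all libraries, limma called 0 (0.0%) at an adjusted p of 0.05 in each of these 5 contrasts. The numbers with an unadjusted p under 0.05 were 14, 58, 44, 83 and 29 in the same order. A region with no listed peak in any 1 library was left out before this fit. Sites that a treatment opened or closed so far that a peak appeared or was lost could not be called. The 0 is therefore no measure of such changes, and this Tead1 region was the 1 member region fitted.

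Some other recurrent regions lay in introns of the TEAD genes, and others upstream of them, such as chr17:28371045-28371736 at Tead3, called in 5 libraries. The intron region called most often was chr7:112696859-112697896 in Tead1, in 7 libraries at a fold enrichment of 2.84 to 5.26. The strongest intron region was chr17:28340768-28341554 in Tead3, 9530 bp into the gene. Its fold enrichment was 6.31 and 10.9 in vehicle libraries 1 and 3, 7.78 in E2 library 1, 8.47 in E2 plus fulvestrant library 1, and 5.91 and 4.08 in fulvestrant libraries 1 and 2. Every treatment had at least 1 call there, and 43 tags lay at the summit in vehicle library 3. In Tead1, chr7:112825829-112826750, 147079 bp into the gene, had 3.37 and 5.95 with vehicle (1 and 3), 6.15 with E2 (1), 8.99 with E2 plus fulvestrant (1) and 7.08 with fulvestrant (1). The Yap1 locus was marked most often not at Yap1 itself but at the start of Cfap300, chr9:8042400-8043256, in 7 libraries.

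**Figure D4:**
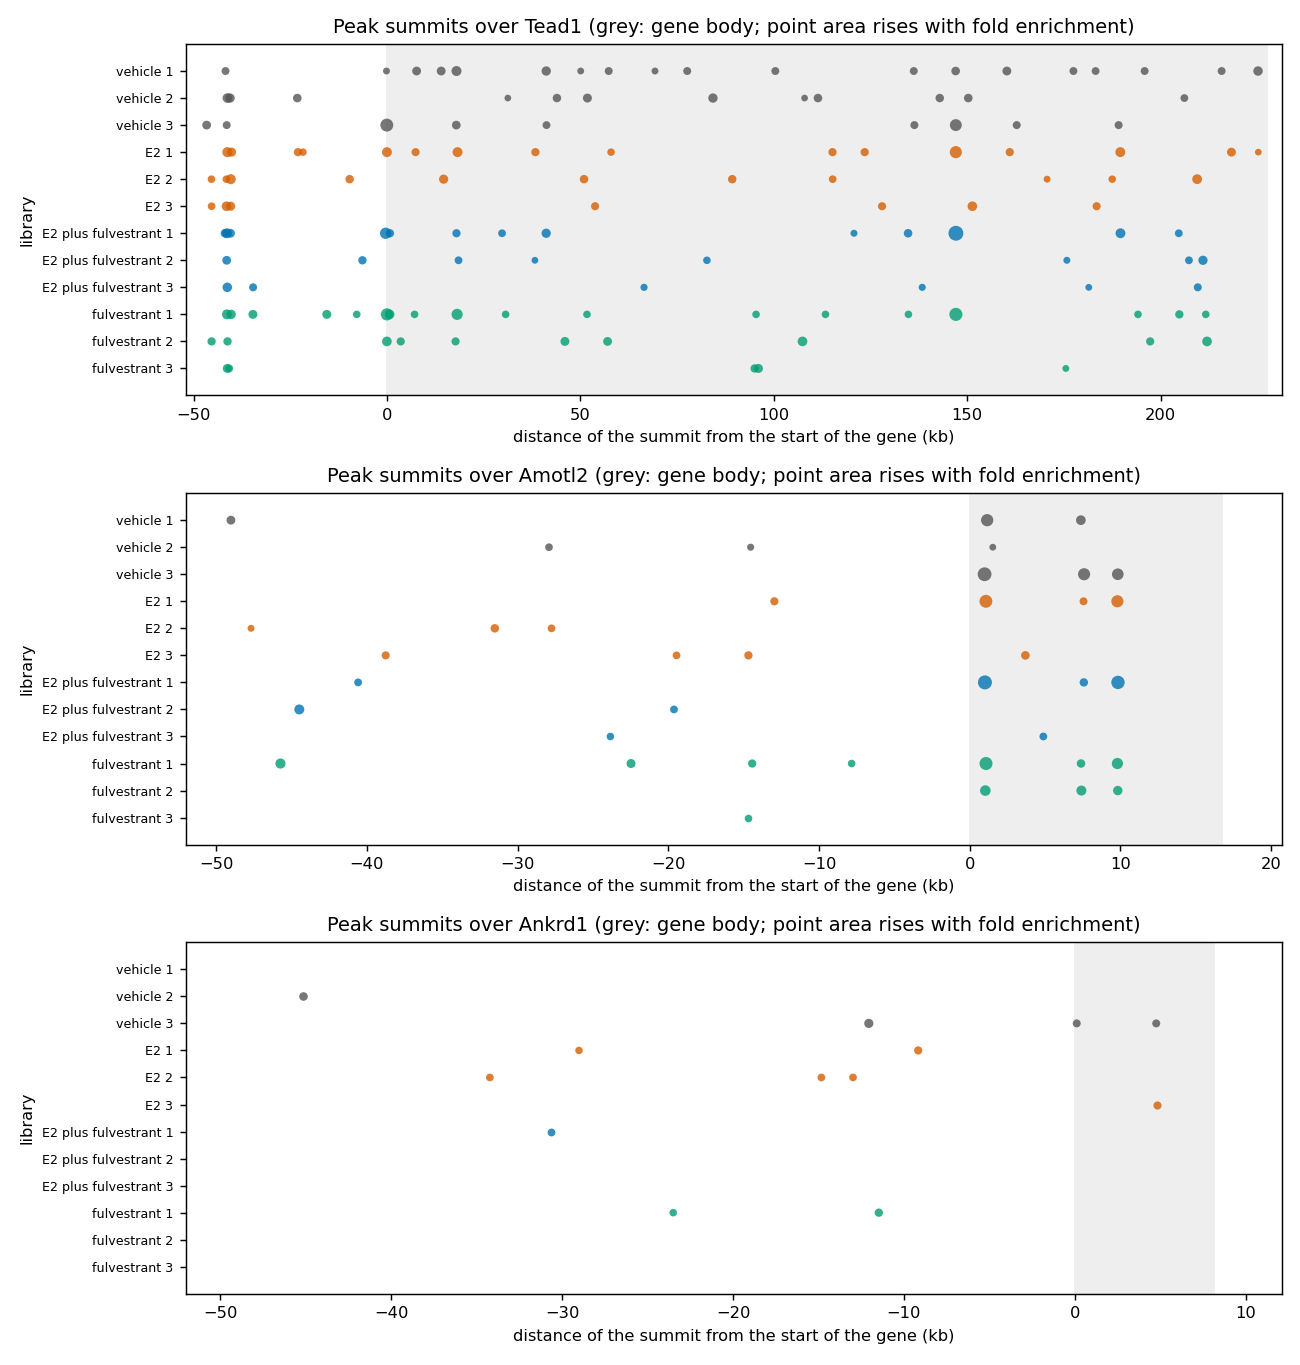
Peak summits over Tead1, Amotl2 and Ankrd1 by distance from the gene start (horizontal axis, kb, negative upstream), 1 row per library coloured by treatment; the grey band is the gene body and point area rises with fold enrichment. A column of points in all 12 rows stands upstream of Tead1, Amotl2 peaks gather near its starts, and Ankrd1 has 13 peaks in all.

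The recurrent regions were searched for motifs within 100 bp of the summit on both strands. The TEAD motif GGAATG was present at 5 of 16 promoter regions listed in 3 or more libraries (31.3%), namely at Amotl2, Tead1, Tead4, Wwtr1 and Yap1, against 8.63% of all such promoter regions. It was present at 0 of 15 distal member regions listed that often, against 10.8% of all such regions, and at 19 of 206 distal member regions in any library (9.22%, 95% Wilson interval 5.98 to 13.96), against 11.6%. The AP-1 motif TGANTCA, bound by FOS and JUN, was present at 7 of those 15 distal regions (46.7%), against 8.09% of all such regions: 2 at Tead3, 2 at Wwtr1 and 1 each at Tead1, Tead4 and Yap1. Within 50 bp, AP-1 was present at 2 of the 15 distal regions (13.3%, against 4.64%) and TEAD at 2 of the 16 promoter regions (12.5%, against 4.54%). The palindromic estrogen response element was present at 0 of 287 member regions, and at 0.0267% of all distal and 0.0244% of all promoter regions, too rare for the 0 to be read. These shares are descriptions, since the loci and libraries share sequence and depth.

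The main question of the treatments was whether E2 changed accessibility and whether fulvestrant opposed it. The 10 loci together held 48, 61 and 38 peaks with vehicle (mean 49 ± 11.5, SD, n = 3) and 60, 33 and 25 with E2 (39.3 ± 18.3). They held 48, 21 and 22 with E2 plus fulvestrant (30.3 ± 15.3) and 64, 26 and 15 with fulvestrant (35 ± 25.7). All 4 treatments overlapped, and within E2, E2 plus fulvestrant and fulvestrant the library numbered 1 held the most.

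**Figure D5:**
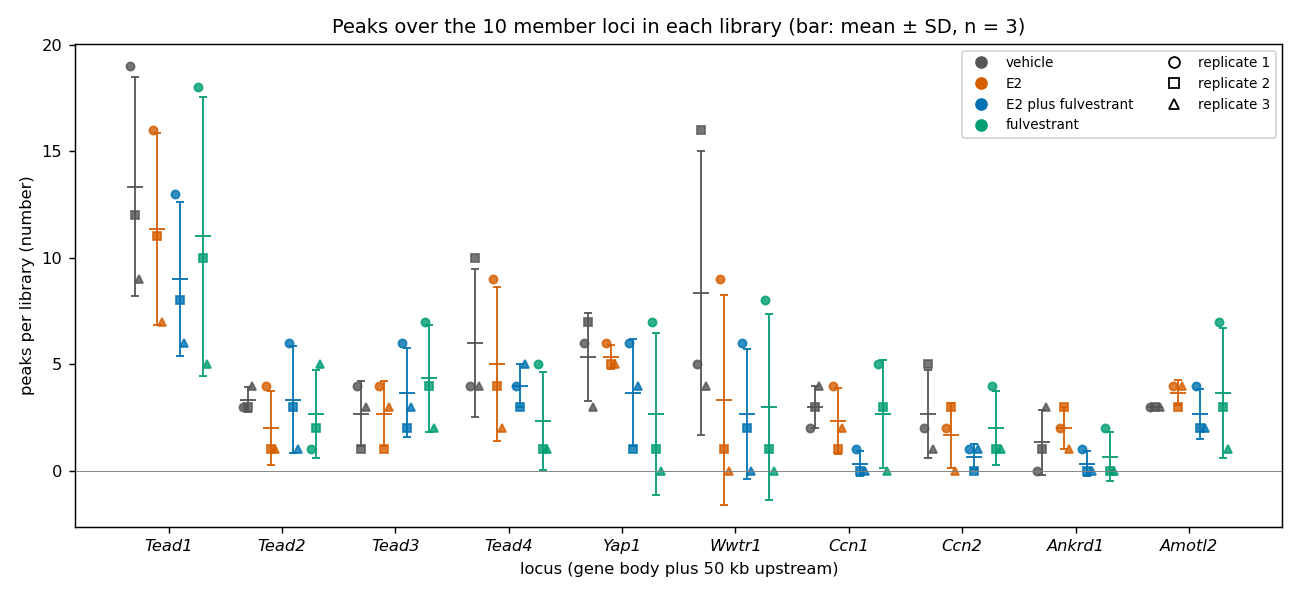
Peaks per library (vertical axis, number) over each member locus, coloured by treatment and shaped by replicate number, with the mean and SD of 3 libraries. Points of the 4 treatments overlap at nearly every locus; Ccn1 with E2 plus fulvestrant (1, 0 and 0) lies below Ccn1 with vehicle (2, 3 and 4).

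Of E2 against E2 plus fulvestrant, 0 of the 10 loci had peak numbers that did not overlap, against 1.67% of 21630 loci with E2 above and 0.448% with E2 plus fulvestrant above. The mean was higher with E2 at 8 members and lower at 2, and over all loci it was higher at 11314 and lower at 7217. Ccn1 held 4, 1 and 2 peaks with E2 and 1, 0 and 0 with E2 plus fulvestrant, a difference of 2.0 (exact permutation test, two-sided, p = 0.2, adjusted p = 1). Ankrd1 held 2, 3 and 1 against 1, 0 and 0, a difference of 1.67 (exact permutation test, two-sided, p = 0.2, adjusted p = 1). Tead1 held 16, 11 and 7 against 13, 8 and 6, a difference of 2.33 (exact permutation test, two-sided, p = 0.6, adjusted p = 1). With 3 libraries against 3 the exact test cannot give a p under 0.1, and it does not use the replicate numbers. Compared within replicate numbers, E2 was higher in 3 of 3 at Tead1, Ccn1 and Ankrd1, and in 0 of 3 at Tead2 and Tead3. The share of all loci with such an order was not counted. The E2 list was the larger in numbers 1 (78822 against 60924 peaks) and 2 (48738 against 36350), and the smaller in number 3 (31697 against 33536). These orders therefore cannot be read as a result about the members.

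Of E2 against vehicle, 0 of the 10 loci did not overlap, against 0.171% of loci with E2 above and 3.25% with vehicle above. The mean was higher with E2 at 2 members and lower at 6, and over all loci higher at 3188 and lower at 16511. Wwtr1 held 5, 16 and 4 peaks with vehicle and 9, 1 and 0 with E2, a difference of -5.0 that was -1.17 without vehicle library 2. Tead4 held 4, 10 and 4 against 9, 4 and 2, and Yap1 6, 7 and 3 against 6, 5 and 5, with no order between the groups.

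Of fulvestrant against vehicle, 0 of the 10 loci did not overlap, against 0.166% of loci with fulvestrant above and 4.59% with vehicle above. Means were higher with fulvestrant at 2 members and lower at 8, and over all loci higher at 2463 and lower at 17391. Wwtr1 held 8, 1 and 0 peaks with fulvestrant and 5, 16 and 4 with vehicle, a difference of -5.33 that was -1.5 without vehicle library 2. Tead4 held 5, 1 and 1 against 4, 10 and 4, a difference of -3.67 that was -1.67 without vehicle library 2, and Yap1 held 7, 1 and 0 against 6, 7 and 3. The 2 members with the higher mean were Amotl2 (7, 3 and 1 against 3, 3 and 3) and Tead3 (7, 4 and 2 against 4, 1 and 3).

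Of E2 plus fulvestrant against vehicle, 1 of the 10 loci did not overlap, against 0.153% of loci with E2 plus fulvestrant above and 5.63% with vehicle above. The mean was higher at 1 member and lower at 8, and over all loci higher at 2319 and lower at 17660. The locus without overlap was Ccn1, with 1, 0 and 0 peaks against 2, 3 and 4 (difference -2.67, exact permutation test, two-sided, p = 0.1, adjusted p = 1). It was lost when peaks were limited to a q-value of 0.05, to 10000 bp upstream or to the gene body. The 3 comparisons with vehicle share the vehicle libraries.

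In the wider pathway, 0 of the 24 upstream Hippo genes and 0 of the 18 other targets did not overlap in E2 against E2 plus fulvestrant or in E2 against vehicle. Fulvestrant was below vehicle without overlap at 1 of the 24, Taok3, a kinase upstream of the cascade, and at 3 of the 18, Crim1, Tgfb2 and Dlc1, beside 4.59% of all loci. E2 plus fulvestrant was below vehicle at 0 of the 24 and at 2 of the 18, Arhgef17 and Myof, beside 5.63% of all loci. These were raw peak numbers, not divided by list size. Vehicle lists held 44358 to 110724 peaks, against 30062 to 73801 with fulvestrant and 33536 to 60924 with E2 plus fulvestrant. The shares over all loci include loci with few peaks and were not matched for peak number, so these genes cannot be read as set apart. Taok3 held 13, 19 and 12 peaks with vehicle and 10, 4 and 7 with fulvestrant, and Tgfb2, a ligand of the transforming growth factor pathway, held 9, 8 and 7 against 6, 3 and 0. All of these had an adjusted p = 1 in the two-sided exact permutation test.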

How the data were processed

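ATAC-seq was done on 12 libraries, 3 per treatment. The authors trimmed reads with Trimmomatic 0.39, aligned them to mm10 with Bowtie2, removed duplicates with Picard 2.21.4 and called peaks per library with MACS2. The deposited peak lists give fold enrichment over local background, the −log10 of the p-value and q-value of each summit, and a display score that was not used. Fold enrichment was solved as a ratio with 1 added to the tags and 1 to the background, which lowers values most where the background is low. In vehicle library 1 the Tead1 region had 4 tags over a background of 0.713 and was listed at 2.92. The smallest −log10 p was 2.006, and lists were not limited by q-value, so weak peaks are included. Lists hold no reads, so the count model on pooled peaks that the study used could not be run. The paper also states that batch effects were removed with limma. The main tests here held no batch term.

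Summits were assigned with GENCODE M21. Overlapping peaks were merged across libraries. Tags at a summit were solved from fold enrichment and p (tolerance 0.002). Peak numbers were compared by exact permutation tests (SciPy 1.17.1) with Benjamini-Hochberg adjustment over 21630 loci, and log2 fold enrichment of regions called in all libraries with limma 3.58.1, centred on each library's median. limma was also run on simulated data with independent noise and without centring, a setting unlike that of the reported fit. Members and gene lists were chosen with earlier results of these data known. All 10 members are named; other pathway genes were to be named where groups did not overlap with E2, which none did, so the 6 named against vehicle were chosen after their values were seen, as was the set of printed sequences, which replaced planned distal ones. Labels do not say whether libraries came from separate animals, so p-values measure the spread between libraries. Intervals cover counting error only. Samples were grouped by their treatment labels. The upstream sequence of 1 member is not reported here.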

Additional observations from a re-analysis of the deposited data

How the results depend on the processing

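The number of the 10 loci whose peak numbers did not overlap between groups, 0 in E2 against E2 plus fulvestrant, became 2 when peak numbers were divided by the size of each list (per 10000 peaks), and ranged from 0 to 4 when 1 library was left out; it was 1 without E2 replicate 2, 2 without E2 replicate 3 and 4 without E2 plus fulvestrant replicate 1. E2 against vehicle gave 1 with the gene body alone and 0 to 2 with 1 library left out (2 without E2 replicate 1, 1 without E2 replicate 2). Fulvestrant against vehicle gave 0 to 3 with 1 library left out (3 without fulvestrant replicate 1, 1 without replicate 3), and E2 plus fulvestrant against vehicle gave 0 at a q-value of 0.05, 0 with 10000 bp upstream, 0 with the gene body alone and 1 to 4 with 1 library left out (2 without vehicle replicate 3, 4 without E2 plus fulvestrant replicate 1). Leaving out all libraries numbered 1, an alternative chosen after seeing the data, gave 4, 3, 4 and 5 in the same order of comparisons. With 2 libraries against 2, or 2 against 3, non-overlap is easier to meet. The share over all loci is not given for any of these settings. The counts in this paragraph therefore cannot be read as a result about the members.

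The log2 difference of the summed peaks over the 10 loci was 0.39 for E2 against E2 plus fulvestrant, -0.39 for E2, -0.72 for fulvestrant and -0.78 for E2 plus fulvestrant against vehicle. Per 10000 peaks these became 0.15, 0.16, 0.09 and 0.0095, so the lower sums against vehicle turned direction with list size. At a q-value of 0.05 the difference from vehicle was -1.09 for E2, -0.41 for fulvestrant and -1.80 for both agents together. Within replicate number 1 the 3 differences against vehicle were 0.32, 0.42 and 0.00. With 1 library left out they ranged from -0.74 to -0.11, -1.28 to -0.24 and -1.16 to -0.57, and E2 against E2 plus fulvestrant from 0.03 to 0.77. A minimum fold enrichment of 5 gave no value, since 7 of the 12 libraries held no such member peak and the log2 of 0 is undefined.

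Main tests did not pair same-numbered libraries (deviations correlated at -0.04 to 0.25), so a shift of numbers 1 stays in the spread. With the replicate block the summed difference of E2 against E2 plus fulvestrant was 0.39 (SD of the 3 differences 0.24), and limma called 0 member regions. No alternative took the Tead1 region past an adjusted p of 0.05; its lowest, 0.233, was for E2 against vehicle without vehicle replicate 2. Promoter calls at a q-value of 0.05 fell from 9 to 6 of 12 for Ccn2 and Amotl2, and to 5 for Tead1 and Tead3, 4 for Yap1 and Ccn1, 3 for Tead4 and 0 for Tead2 and Ankrd1. The cause of these changes was not tested. Tag numbers of 4 to 10 at most summits limit the precision of each fold enrichment.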
